A study of Egretta garzetta and Nycticorax nycticorax with 12 samples.

Results

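The 8 olfactory receptor (OR) genes described here, from the night heron *Nycticorax nycticorax*, belong to class II but lie outside OR14, the subfamily that makes up most of its listed receptors. They were chosen by gene identifier: 8 of the 61 OR genes that the study's table lists as expressed in this species, out of 13361 annotated genes. The table gives them 6 subfamily or gene names. NheS0181g055 and NheS0698g006 are OR4 genes, NheS0698g005 is an OR5 gene, NheS0181g053 and NheS0907g001 are OR6 genes, NheS0011g140 is an OR10 gene, NheS0071g001 is named Olfr1030 and NheS0964g002 is named Olfr1052. The same table holds 46 OR14 genes, 4 class I genes (OR51 and OR52) and 3 further class II genes (OR2, OR6 and OR12), which were outside the chosen 8. Since the table holds expressed genes only, a value above 0 in some bird was given by the choice and is not a result.

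RNA came from the olfactory epithelium (OE), the nasal sheet that carries the olfactory neurons, of 3 nestlings (birds 1 to 3, each from a different nest) and 3 adults (birds 4 to 6, known by their breeding plumage) of *N. nycticorax*. All were captured wild birds, no treatment is given, and each gave its own library. The adults were caught at another place than the nestlings, so stage and location cannot be told apart. The same design in the little egret, *Egretta garzetta*, is used here only for genes of the same subfamilies. The OE is a mixed tissue, so fewer neurons of a kind and less RNA per neuron cannot be told apart in these data.

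ORs are G protein-coupled receptors in the cilia of olfactory neurons. In mammals, each mature neuron mostly uses a single OR gene, and an odorant acts through a G protein, cyclic AMP and a cyclic nucleotide-gated channel. Any single receptor is therefore carried by a small share of the cells, and its RNA is scarce in whole tissue. Class I receptors are the kind that fish also have, class II receptors are the large terrestrial class, and OR14 is the subfamily that expanded in birds. The subfamily names say how similar the genes are and not which odorants they bind. Names that begin with Olfr follow the mouse nomenclature. OR genes commonly have their whole coding sequence in a single exon.

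The gene models of the 8 receptors hold coding sequence only, of 840 to 963 bp. The OR14 models ran from 282 to 933 bp, with a median of 855 bp. Of these 46 models, 17 were under 650 bp and 12 were marked partial. The 8 receptors lie on 6 scaffolds of the assembly used by the authors. NheS0011g140 lies on scaffold 11 (7681524 to 7682474, plus strand), NheS0181g053 on scaffold 181 (1732451 to 1733356, plus strand), NheS0698g005 on scaffold 698 (102393 to 103316, minus strand) and NheS0964g002 on scaffold 964 (35423 to 36358, plus strand), each with 1 exon. The other 4 were annotated with 2 coding exons. NheS0181g055 (scaffold 181, 1768442 to 1769317, plus strand) and NheS0907g001 (scaffold 907, 54654 to 55544, minus strand) have exons only 36 bp and 27 bp apart. In NheS0071g001 (scaffold 71, 13660 to 22745, plus strand) and NheS0698g006 (scaffold 698, 114976 to 132798, minus strand) the exons are 8123 bp and 16914 bp apart. NheS0071g001 is the single member that the table marks as partial.

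Expression is given as TPM (transcripts per 1000000 transcripts), a level relative to coding length and library. Coverage, the mean number of aligned bases over each base of the model, was deposited beside it, and coverage times coding length gives the aligned bases behind each value. A read had 150 bases, so a read pair gives at most 300. All 8 receptors together held 19902 aligned bases in the 6 birds, the equivalent of 132.7 reads, while each library held between 10530972 and 13169583 read equivalents on annotated genes. Of the 48 values (8 genes in 6 birds), 30 were above 0 and 18 were listed at 0. Among those above 0, 11 rested on no more bases than 1 read pair holds, 13 on more than that but fewer than 3 read pairs hold, and 6 on at least the 900 bases of 3 read pairs. A value of 0 allows up to 3 read pairs, which for these genes and birds is 0.324 to 0.656 TPM, counting error only. Most of the values below therefore lie under what a 0 allows, and a bird at 0 and a bird at 0.2 TPM were not distinguishable at this depth. A 0 is given as listed, because 38 of 8893 genes averaging 10 TPM or more were at 0 in some bird as well.

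**Figure D1:**
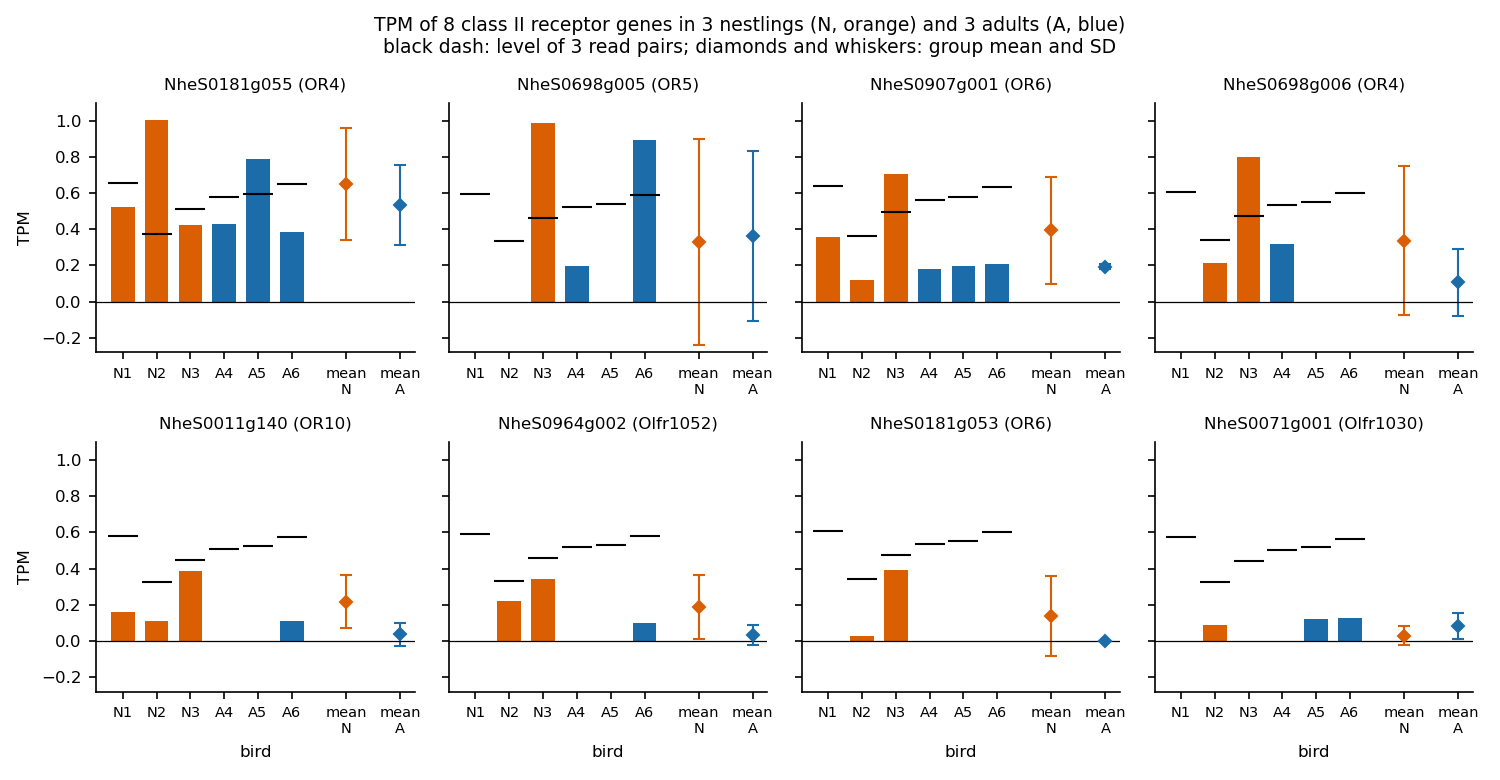
TPM (vertical axis) of the 8 receptor genes in each bird, in order of mean level: nestlings N1 to N3 in orange, adults A4 to A6 in blue. Black dashes give the level of 3 read pairs in that bird, diamonds and whiskers the group mean and SD (n = 3, whiskers may pass below 0). Only 6 bars, in 4 genes, reach their dash.

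The OR4 gene NheS0181g055 had the highest mean of the 8, 0.592 ± 0.249 TPM (SD, n = 6 birds), and was above 0 in every bird. Its level was 0.523, 1.00 and 0.423 TPM in nestlings 1, 2 and 3 and 0.430, 0.788 and 0.386 TPM in adults 4, 5 and 6. The stages overlapped fully, with the second highest value in an adult. It held 42 read equivalents over the 6 birds, 31.7% of all aligned bases on the 8 genes. Nestling 2 (2433 bases) and adult 5 (1196 bases) were the birds with at least 3 read pairs. Among the 61 listed OR genes it ranked 4th, 5th and 49th in nestlings 1, 2 and 3 and 3rd, 4th and 12th in adults 4, 5 and 6. The low rank in nestling 3 went with a level close to those of nestling 1 and adult 4. In nestling 3, 6 of the 8 receptors and 38 of the 46 OR14 genes had their highest value. The list holds expressed genes only, and 60 of its 61 were above 0 in this bird. These counts therefore follow in part from the choice.

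The second OR4 gene, NheS0698g006, was listed at 0 in nestling 1 and stood at 0.212 TPM in nestling 2 and 0.797 TPM in nestling 3. In adults 4, 5 and 6 it had 0.321, 0 and 0 TPM. Nestling 3, with 1523 bases, is the single bird that passed 3 read pairs, and adult 4 lay above nestlings 1 and 2 in TPM. Adult 4 and nestling 2 held 542 and 557 bases, so the order of these 2 birds is not read. The mean was 0.336 ± 0.413 TPM in nestlings and 0.107 ± 0.185 TPM in adults (SD, n = 3 each). The 2 OR4 genes did not share a profile: bird 2 was the nestling with the highest value for NheS0181g055 and bird 3 for NheS0698g006.

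The OR5 gene NheS0698g005 lies next to NheS0698g006, 11659 bp away with no annotated gene between them. It was listed at 0 in nestlings 1 and 2 and had 0.988 TPM in nestling 3, from 1920 bases. Adults 4, 5 and 6 had 0.198, 0 and 0.893 TPM, the last from 1363 bases. A nestling and an adult thus held nearly equal high values while 3 birds were at 0, and the means were 0.329 ± 0.570 TPM in nestlings and 0.364 ± 0.469 TPM in adults (SD, n = 3 each). Nestling 3 and adult 4 had reads on both of the adjacent genes, nestling 2 on NheS0698g006 alone and adult 6 on NheS0698g005 alone.

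NheS0907g001, an OR6 gene, was the other member above 0 in every bird. It had 0.356, 0.120 and 0.707 TPM in nestlings 1, 2 and 3 and 0.180, 0.195 and 0.208 TPM in adults 4, 5 and 6. The adults were alike (0.194 ± 0.0143 TPM, SD, n = 3), but each of these adult values rested on 288 to 304 bases, about 1 read pair. In TPM, nestlings 1 and 3 lay above all adults and nestling 2 below all of them. Nestling 2 held 300 bases, within the range of the adults, so its place below them is not read as a lower level. Only nestling 3, with 1284 bases, passed 3 read pairs.

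The other OR6 gene, NheS0181g053, was the single member listed at 0 in all 3 adults. It was also at 0 in nestling 1, and had 0.0249 TPM in nestling 2 and 0.392 TPM in nestling 3. The value of nestling 2 came from 65 bases, less than the length of 1 read, and that of nestling 3 from 747 bases. Zeros in the adults allowed 0.535 to 0.602 TPM each, above both nestling values, so no fold change is given. NheS0181g053 and NheS0181g055 lie 35085 bp apart on one scaffold, with 1 annotated gene between them, and only the latter had reads in adults.

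The OR10 gene NheS0011g140 was above 0 in all 3 nestlings (0.160, 0.109 and 0.384 TPM in birds 1, 2 and 3) and in 1 adult (0, 0 and 0.108 TPM in birds 4, 5 and 6). It was the single member whose stages did not overlap, and the gap between the lowest nestling and the highest adult was that between 0.109 and 0.108 TPM, from 300 and 170 bases. Of 13042 genes tested, 3.86% had every nestling above every adult and 15.9% had every adult above every nestling. Here the counts were 1 of 8 and 0 of 8, and the 1 rests on that gap. All of these counts use TPM as deposited, where the median log2 fold change of all genes (nestling minus adult) was −0.45. They depend on how the birds are scaled, nestling 2 above all, and were not repeated after rescaling. The mean was 0.218 ± 0.146 TPM in nestlings and 0.0361 ± 0.0625 TPM in adults (SD, n = 3 each), and no bird reached 3 read pairs.

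NheS0964g002 (Olfr1052) had 0, 0.220 and 0.344 TPM in nestlings 1, 2 and 3 and 0, 0 and 0.0970 TPM in adults 4, 5 and 6. The adult value was a length of exactly 150 aligned bases, that of 1 read. NheS0071g001 (Olfr1030), the partial gene, had the lowest mean of the 8, with 0, 0.0885 and 0 TPM in the nestlings and 0, 0.122 and 0.129 TPM in the adults. Each of its 3 values above 0 came from 205 to 246 bases. Neither gene reached 3 read pairs in any bird.

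In the order of mean level over the 6 birds, NheS0181g055 was followed by NheS0698g005 (0.347 ± 0.468 TPM), NheS0907g001 (0.294 ± 0.217 TPM), NheS0698g006 (0.222 ± 0.312 TPM), NheS0011g140 (0.127 ± 0.141 TPM), NheS0964g002 (0.110 ± 0.144 TPM), NheS0181g053 (0.0695 ± 0.158 TPM) and NheS0071g001 (0.0566 ± 0.0634 TPM; SD, n = 6 birds). Every step between neighbours in this order was smaller than the SD of either gene. The first step, of 0.246 TPM, came closest to an SD, and there the higher gene led in 4 of 6 birds. Of all annotated genes, 10.6% had a mean at or below that of NheS0181g055.

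**Figure D2:**
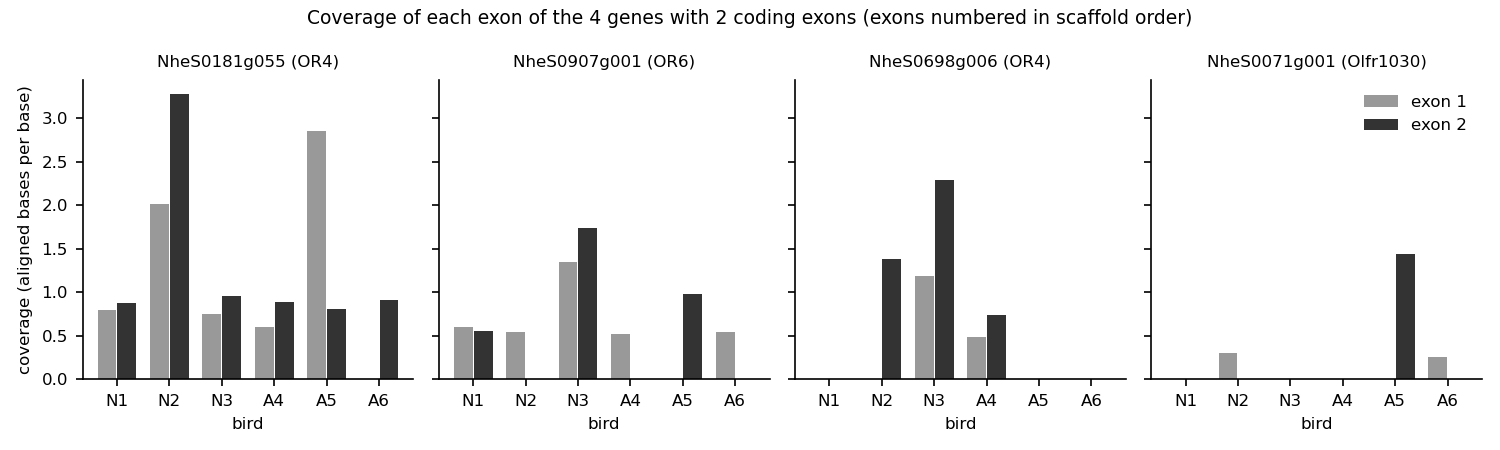
Coverage (vertical axis, aligned bases per base) of the first (grey) and second (black) coding exon, in scaffold order, of the 4 two-exon genes in each bird (N: nestling, A: adult). NheS0181g055 has both exons covered in 5 of 6 birds and NheS0071g001 in none.

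Among the genes annotated in 2 pieces, exon coverage ran with the number of aligned bases. NheS0181g055, NheS0907g001, NheS0698g006 and NheS0071g001 held 6300, 2975, 2622 and 663 bases. Both exons had reads in 5, 2, 2 and 0 birds, in the same order. In NheS0181g055 both exons (252 and 588 bp) had reads in 5 birds, and adult 6 had reads on the second alone. Its second exon, with 70% of the length, held 72.0% of the aligned bases. This balance holds for the sum alone: in adult 5, 60.1% of the bases lay on the first exon, which has 30% of the length. NheS0907g001 was similar in sum, with 34.1% of the bases on an exon that makes up 35.9% of the length. Only nestlings 1 and 3 covered both of its exons, and the remaining 4 birds covered one or the other.

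In NheS0698g006, whose exons lie far apart, both exons had reads in nestling 3 (595 and 928 bases) and adult 4 (242 and 300 bases), while nestling 2 had reads on the second exon in scaffold order alone. NheS0071g001 never had both in the same bird, but with fewer bases than 1 read pair in each bird that is little to go by. Nestling 2 and adult 6 had reads on its first exon only (816 bp), and adult 5 had 212 bases on its second exon only (147 bp). Coverage of 1.44 over that short exon, against 0.251 and 0.301 over the long exon in adult 6 and nestling 2, came from a similar number of bases in each bird.

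Aligned bases came out as whole numbers, within 0.02, for 30 of the 30 values above 0. This held for 102 of 115 values of the OR14 genes, 11 of 11 of the other class II genes and 16 of 16 of the class I genes. Over all genes with coverage under 5 in every bird, it held for 94.8% of 6315 values. The 8 genes lay near that share. Estimates that divide reads between models need not be whole. No annotated gene overlapped any of the 8. The library kit named in the methods does not mark strand, so RNA from the opposite strand would be counted too.

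The 8 genes had 10 annotated neighbours outside the group, and 9 of these were above the highest receptor value (1.00 TPM) in every bird, with 3.98 to 8489 TPM. The other, NheS0181g052 beside NheS0181g053, was listed at 0 in all 6 birds. NheS0181g054, between the 2 receptors on scaffold 181, had 3.98 to 30.5 TPM, and NheS0698g004, 44834 bp from NheS0698g005, had 2764 to 8489 TPM.

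Nestlings and adults were compared with limma on log2(TPM + 0.1), a scale that understates changes of low genes. All 8 receptors passed the filter on low values, and 0 of 8 passed an adjusted p of 0.05 (limma, Benjamini-Hochberg over all genes). The background for this count was also 0%: none of 13042 genes passed, and 6 did when nestling 1 was left out. At an unadjusted p under 0.05 there were 0 receptors, against 924 genes or 7.08% of those tested. NheS0181g053 passed the filter through the nestlings alone, so no estimate is given for it and its place in these counts carries no weight. Of the other 7, 5 had estimates above 0 (nestlings higher) and 2 below, with a median log2 fold change of 0.56. This median was 0.13 without nestling 3 and 0.19 with a pseudocount of 1, and it supports no direction. The median over all genes tested was −0.45, and dividing the birds by their median ratios moved it by 0.43 to −0.02. After that rescaling the median of the 7 receptors was 0.83, again with 5 above 0.

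**Figure D3:**
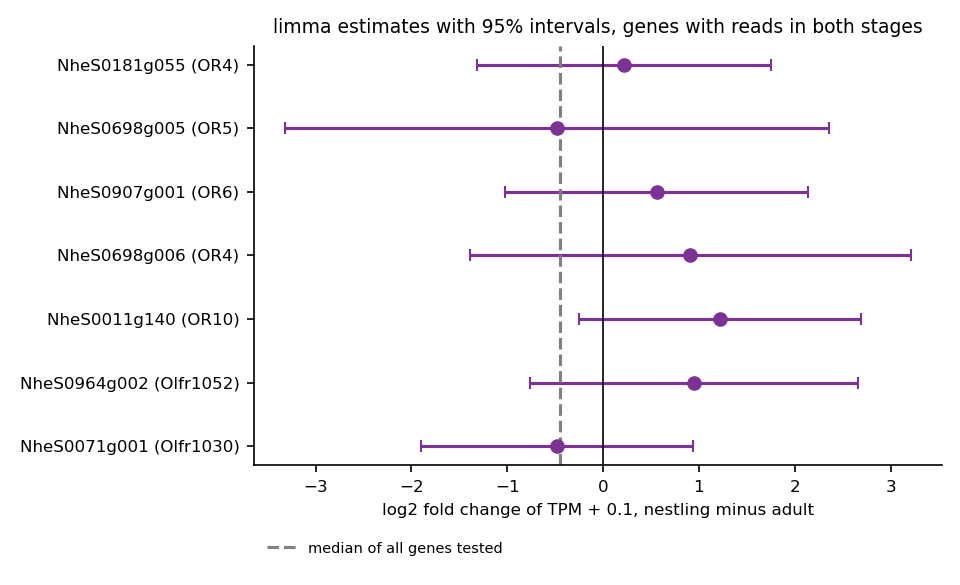
limma log2 fold changes of TPM + 0.1, nestlings minus adults, for the 7 receptor genes with reads in both stages (points, with 95% intervals as bars). The dashed line marks the median of all genes tested (−0.45). Each interval covers 0.

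Among these 7, the largest estimate was that of the OR10 gene NheS0011g140, with a log2 fold change of 1.22 (SE 0.63; limma, adjusted p = 0.573). It was 0.87 without nestling 3 and 1.57 without adult 6, and 3.13 or 0.23 with a pseudocount of 0.01 or 1. NheS0964g002 had 0.95 (SE 0.73), which was 0.51 without nestling 3 and 1.59 without nestling 1. NheS0698g006 had 0.91 (SE 0.98). Leaving out nestling 3 gave 0.13, adult 5 or adult 6 gave 0.57, nestling 1 gave 1.71 and adult 4 gave 1.60. For NheS0907g001 the estimate was 0.56 (SE 0.68), with 0.11 without nestling 3 and 1.04 without nestling 2. NheS0181g055 had 0.22 (SE 0.66, 95% interval −1.32 to 1.75), and its sign changed to −0.10 without nestling 2, with 0.05 to 0.49 as the other birds were left out. The estimates below 0 were −0.48 for both NheS0071g001 (SE 0.61; −0.87 to −0.27 as each bird was left out) and NheS0698g005 (SE 1.21). The interval of NheS0698g005, −3.32 to 2.36, was the widest, and its sign changed without nestling 1 or nestling 2 (0.09 each) or adult 6 (0.36), while it was −1.63 without nestling 3 and −1.30 without adult 5. Adjusted p-values from limma ran from 0.573 to 0.877 over these 7. In two-sided exact permutation tests on the TPM of single genes, p ran from 0.1 for NheS0011g140 to 1 for NheS0698g005, and 0.1 is the smallest that 3 birds against 3 allow. The 95% intervals of the 7 genes leave room for changes in either direction.

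Counted per bird, 3, 7 and 7 of the 8 receptors were above 0 in nestlings 1, 2 and 3. Adults 4, 5 and 6 had 4, 3 and 6 of them above 0. The averages were 5.67 ± 2.31 in nestlings and 4.33 ± 1.53 in adults (SD, n = 3 each), a difference of 1.33 genes that is smaller than the spread. It was 2.67 without nestling 1, 2.17 without adult 6, 0.667 without nestling 2, nestling 3 or adult 5, and 2.33 when detection needed 3 read equivalents. Their mean level was 0.130, 0.222 and 0.504 TPM in the nestlings and 0.141, 0.138 and 0.228 TPM in the adults. The group means, 0.286 ± 0.195 and 0.169 ± 0.0509 TPM, differed by 0.117 TPM, again less than the spread among nestlings. On the deposited scale, nestling 3 decided that value. It held 38.5% of all aligned bases on the 8 genes and the highest value of 6 of them. Without nestling 3 the difference was 0.00710 TPM. That small difference depends on the scale of nestling 2, whose median ratio was 0.551 against 1.01 to 1.23 in the other birds. It was not repeated after rescaling. Nestling 3 also held the highest value of 38 of the 46 OR14 genes, in a list of which 60 of 61 genes were above 0 in that bird. Without nestling 1 the difference was 0.194 TPM. With all 6 birds rescaled by the median ratios it was 0.196 TPM.

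**Figure D4:**
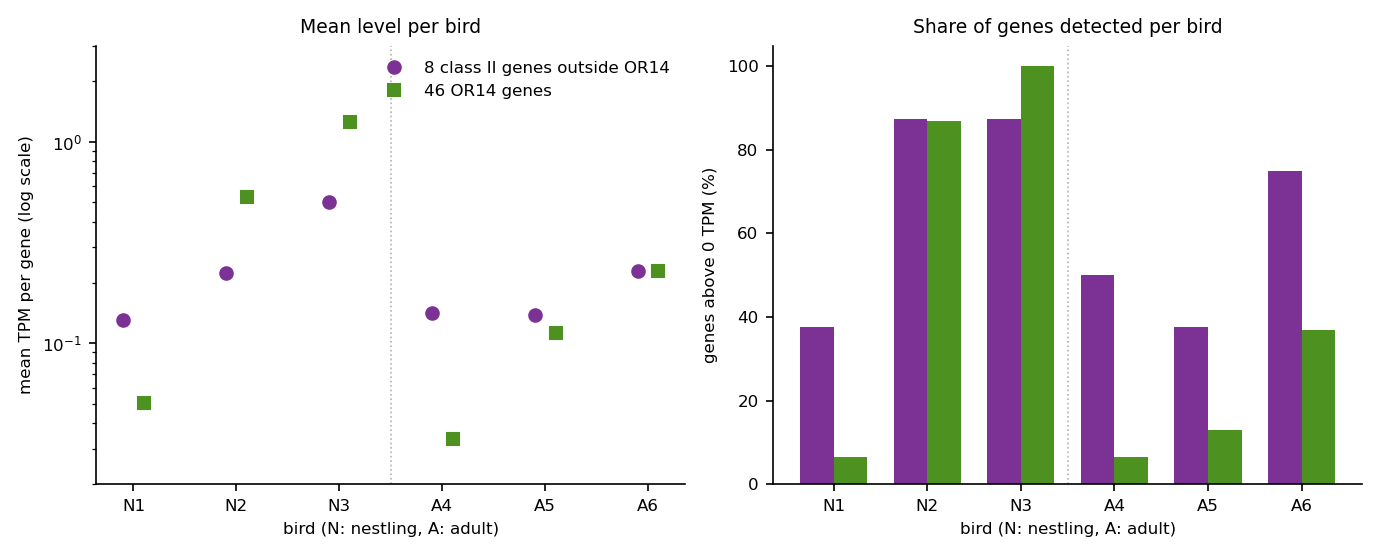
Left, mean TPM per gene (log scale) of the 8 receptor genes (purple) and the 46 OR14 genes (green) in each bird; right, the percentage of each group above 0 TPM. In nestling 1, adult 4 and adult 5 the 8 receptors lie above the OR14 genes in both panels.

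The OR14 genes of the same birds varied more. Their mean was 0.0506, 0.529 and 1.25 TPM in nestlings 1, 2 and 3 and 0.0333, 0.113 and 0.229 TPM in adults 4, 5 and 6, a wider range than that of the 8 receptors. Between 3 (nestling 1 and adult 4) and 46 (nestling 3) of the 46 OR14 genes were above 0. In nestling 1 and adult 4, 37.5% and 50% of the 8 receptors were detected against 6.52% of the OR14 genes in both birds. The shares were 37.5% against 13.0% in adult 5 and 75% against 37.0% in adult 6. In nestlings 2 and 3 they were 87.5% against 87.0% and 87.5% against 100%. These shares were not matched for length, and 17 of the 46 OR14 models were under 650 bp. In all 3 adults, 1 of the 8 receptors (12.5%) and 27 of the 46 OR14 genes (58.7%) were at 0. In nestlings, all 8 receptors and all 46 OR14 genes were above 0 in at least 1 bird. Absence from a whole stage thus occurred on the adult side only, in both groups of genes. The list holds expressed genes only, so a gene at 0 in every adult had to be above 0 in some nestling. These adult zeros are therefore not read as a stage result. Of the 4 listed OR genes above 0 in all 6 birds, 2 were NheS0181g055 and NheS0907g001, and 1 was an OR14 gene.

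Within a bird, the ratio of the mean TPM of the 8 receptors to that of the OR14 genes does not depend on how the library was scaled. In nestlings 1, 2 and 3 this ratio reached 2.56, 0.420 and 0.404, against 4.23, 1.22 and 0.993 for adults 4, 5 and 6. The 2 highest ratios rest on few reads. Adult 4 had 12.3 read equivalents on the 8 receptors and 13.0 on the OR14 genes, and nestling 1 had 9.78 and 20.5. In nestling 3 they were 51.1 and 524. Nestling 1 lay among the adults, and the other nestlings below all adults. On the log2 scale the mean was −0.40 ± 1.52 in nestlings and 0.79 ± 1.13 in adults (SD, n = 3 each), a difference of −1.19 that is smaller than the spread among nestlings. Without nestling 1 it was −2.07, without nestling 2 −0.76, without nestling 3 −0.73 and without adult 4 −0.54. With only the OR14 genes of at least 650 bp it was −0.82, and with only those with a listed transcript length −1.72. The 8 receptors took 17.8%, 6.52% and 5.73% of the summed TPM of the 61 listed OR genes in the nestlings and 33.4%, 13.4% and 12.0% in the adults. In nestlings, 17 OR14 genes had a mean above that of NheS0181g055, the highest of the 8, and in adults 3 had. None of the OR14 genes passed the limma threshold, and neither did any other of the 13042 genes tested. No fold change is given for the OR14 genes as a group, since 27 had reads in nestlings alone. These 27 entered the list of expressed genes through nestlings only. The same choice enters the stage differences in the ratio and in the shares, and the count of 17 against 3. These are therefore descriptions of the listed genes and are not read as stage results. Values of single OR14 genes are uncertain, because reads may fit several of these close relatives.

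The OR genes whose profile over the 6 birds was most like that of NheS0181g055 were sought among the other 60 by Pearson's r of log2(TPM + 0.1). They were the OR14 genes NheS1424g001 (r = 0.63, above 0 in 2 birds) and NheS1141g001 (r = 0.46, 3 birds) and the member NheS0071g001 (r = 0.45, 3 birds). These are descriptions over 6 birds that share library and depth, and no gene followed it closely.

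The 3 listed class II genes outside the 8 were higher in some birds. NheS1194g001, also an OR6 gene, had 0, 0.140 and 3.21 TPM in nestlings 1, 2 and 3 and 0.238, 0.163 and 1.55 TPM in adults 4, 5 and 6. Its values in nestling 3 and adult 6 were above every value of the 8. NheS1426g001 (OR2) was above 0 in nestlings 2 and 3 only (0.117 and 1.17 TPM), and NheS2236g001 (OR12) was highest in adult 6 (0.718 TPM). With these 3 included, the stage difference in mean level was 0.143 TPM and the log2 ratio to OR14 differed by −1.37. The limit set by the choice of expressed OR14 genes holds for this ratio too.

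In *E. garzetta*, 4 genes of the table belong to OR4, OR5 and OR10, as do 4 of the 8 night heron genes, and the 2 species are set side by side without a test since genomes and models differ. The egret OR10 gene Ega_R015887 had 0, 0.237 and 0.219 TPM in nestlings 1, 2 and 3 and 0 in the 3 adults. The OR5 gene Ega_R002301 was above 0 in nestling 1 (0.207 TPM) and adult 4 (0.120 TPM). The OR4 genes Ega_R016576 and Ega_R016577, neighbours on one scaffold, reached at most 0.265 and 0.257 TPM. In all, 10 of 24 egret values and 16 of 24 night heron values of these subfamilies were above 0, and no egret value rested on more than 498 aligned bases.

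The tissue and the libraries were checked with genes of known identity. CNGB1, a subunit of the cyclic nucleotide-gated channel of olfactory neurons and of rods, had 3.00, 1.96 and 8.12 TPM in nestlings 1, 2 and 3 and 4.88, 3.56 and 4.67 TPM in adults 4, 5 and 6. Its highest value fell in nestling 3, as for 6 of the 8 receptors and 38 of the 46 OR14 genes. The other genes of the signalling and neuron lists did not follow, apart from THY1. A peak in nestling 3 was not particular to olfactory genes. PAX6, HES5, COL1A1 and CRYBA1, from the progenitor, stroma and lens lists, were highest there too, while SOX2 and PDGFRA were not. SLC24A4, an exchanger that removes calcium from olfactory cilia in mice, had 0 TPM in nestling 2 and at most 1.28 TPM (adult 6). GNB1, a G protein beta subunit, had 323, 116 and 358 TPM in the nestlings and 299, 302 and 429 TPM in the adults. None of these 3 signalling genes and none of 7 cilia genes (BBS4, BBS7, IFT88, IFT122, TTC8, WDR19 and NPHP4) passed the test between stages by limma. The same held for all 13042 genes tested. The defining olfactory neuron marker OMP and the other olfactory neuron genes were not analysed here.

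Libraries also differed in make-up. The summed TPM of 5 stroma markers ran from 964 to 22280 in nestlings, lowest in nestling 1 and highest in nestling 3, and from 4318 to 12970 in adults. COL1A1 made up most of this sum (21870 TPM in nestling 3), while PDGFRA and PDGFRB were lowest in nestling 2 (1.02 and 0.883 TPM). The 5 genes of the neuron list, CNGB1 among them, summed to 89.3 to 148 TPM in nestlings and 136 to 148 TPM in adults. THY1 was the largest of them in every bird (116 TPM in nestling 3), while VSNL1 was lowest in that bird (15.7 TPM). The sum is therefore not read as neuron content. The sum of 4 progenitor or supporting cell markers ran from 92.7 to 247 TPM in nestlings and from 209 to 249 TPM in adults. The epithelial genes KRT12 and GRHL3 together ran from 118 to 497 TPM in nestlings and from 185 to 282 TPM in adults. Most of this sum was KRT12 (474 TPM in nestling 1, against 23.0 TPM for GRHL3). The gland marker AQP5 ran from 279 to 703 TPM in nestlings and from 447 to 687 TPM in adults. Retinal photoreceptor markers summed to at most 7.44 TPM, with RH1 at 0 in nestlings 2 and 3, lens markers to at most 14.7 TPM, and the muscle marker CACNA1S to at most 1.12 TPM. Apart from the photoreceptor gene PDE6C, which was too low to be tested, all were tested with limma and none passed between stages. None of all 13042 genes passed, so this does not show that the make-up was alike. PDGFRB was higher in every adult (34.8 to 54.6 TPM) than in any nestling (0.883 to 22.5 TPM), as were 15.9% of genes tested. The other stroma genes overlapped between stages. Nestling 2 stood apart in scale, with a median ratio of 0.551 against 1.01 to 1.23 in the other birds. Their part in the receptor values was not tested.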

How the data were processed

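RNA-seq libraries of 6 *N. nycticorax* OEs (3 nestlings, 3 adults) were used, with those of *E. garzetta* for comparison. The authors trimmed 150 bp read pairs with Trimmomatic, mapped them with HISAT2 (no version found in the sources used here) and quantified annotated models in each bird with StringTie 2.1.4. The paper took its own OR levels from TACO, which merged the birds of each group. Those levels need not equal the values per bird used here. The deposited TPM values sum to 1000000 per bird, and the deposited FPKM values come from the same runs and served as an alternative. Deposited coverage, a signal per base, gave aligned bases and read equivalents (coverage times coding length over 150). The deposited annotation files gave positions and exons. The files write 0 in 2 forms, a difference that the sources used here do not explain.

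Subfamilies and marker symbols come from the study's supplementary tables. The 8 genes, the lists and the tests were chosen with earlier results of these data known. Birds were grouped by the labels, and only their spread enters the tests. For stages, limma 3.58.1 under R 4.3.3 was used (lmFit and trended eBayes) on log2(TPM + 0.1). Genes averaging 0.02 TPM or more entered, and p-values were adjusted by Benjamini-Hochberg over all of them. The code was tested on simulated data. One gene of the cilia list is not reported here. Detection, mean level and ratios are descriptions without a test. All 8 genes were named, with the 3 OR genes most like the highest, annotated neighbours, and egret genes of the same subfamilies. Alternatives were other pseudocounts (0.01 and 1), filters, scaling, FPKM, detection limits, gene sets and leaving out each bird. Python 3.11.15, numpy 2.4.6, pandas 2.3.3 and matplotlib 3.10.9 were used for the rest.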

Additional observations from a re-analysis of the deposited data

How the results depend on the processing

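No receptor passed the threshold in any of the 12 alternatives where it was tested; the lowest adjusted p of a receptor (limma) was 0.232. Of 93 gene and setting combinations, 89 kept the sign of the estimate and 4 changed it. The 89 include results whose sign could not change. NheS0181g053 was at 0 in every adult, and another filter leaves the estimate of a gene as it was. For NheS0011g140 every nestling lay above every adult, so no pseudocount and no bird left out could turn its sign. NheS0181g055 turned to −0.10 without nestling 2, and NheS0698g005 to 0.09 without nestling 1, to 0.09 without nestling 2 and to 0.36 without adult 6 (log2, nestling minus adult). When each bird was left out, NheS0181g055 ran from −0.10 to 0.49 and NheS0698g005 from −1.63 to 0.36. Another 3 combinations could not be tested: 2 receptors with a mean of at least 0.1 TPM, and NheS0181g053 without nestling 3. Over all genes, the number called ran from 0 to 6 when each bird was left out, with 6 without nestling 1, and was 0 under every other alternative. When each bird was left out, the stage difference in detected receptors ran from 0.667 to 2.67. That in mean TPM, without rescaling, ran from 0.00710 to 0.194, and that in the log2 ratio to OR14 from −2.07 to −0.54. The choice of expressed OR14 genes enters this ratio under every alternative, so its sign is not read as a stage result. Leaving out 1 of 3 birds always moves a group mean by less than that group's SD. The size of these shifts is therefore no sign of stability. Under the other alternatives these differences moved by less than the SD among nestlings. Depth limits the values, since 24 of 30 above 0 rest on fewer than 3 read pairs, and so does the number of birds. No paired analysis was possible because nestlings and adults were different birds, caught at different places.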
